A study of Homo sapiens with 6 samples.

Results

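Metallothioneins and the genes that regulate zinc were followed in mitotic human fibroblasts with and without activated H-RasV12. The set held 7 metallothionein genes (MT2A, MT1A, MT1E, MT1F, MT1G, MT1M and MT1X) and 3 zinc regulators (MTF1, SLC30A1 and SLC39A14). These 10 genes were found by symbol among the 63129 genes listed. Both groups were ERRAS cells, which are IMR90 primary human lung fibroblasts carrying a retroviral construct of oncogenic H-RasV12 fused to the ligand-binding domain of the estrogen receptor (ER:H-RasV12), kept at 3% oxygen. The 3 Ras-induced libraries came from cells given 100 nM tamoxifen for 4 days, and the 3 control libraries from uninduced cells with the same construct. The dose is that of the sample labels, whereas the methods give the dose of 4-hydroxytamoxifen by mass, which is a larger amount, and the 2 were not reconciled. Cells of both groups were arrested with 1 µM dimethylenastron (DME), an inhibitor of the spindle motor Eg5, and the detached mitotic cells were collected with a mitotic index above 90%. The comparison asked which transcripts differed between mitotic cells with and without activated Ras. Both groups were drug-arrested, so the data do not describe unperturbed mitosis, and the tamoxifen and the Ras it activates cannot be told apart.

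Metallothioneins are small, cysteine-rich proteins that bind zinc and copper and buffer the free metal in the cell. Their genes lie in a cluster on chromosome 16, and many of them are switched on by the zinc-sensing transcription factor MTF1, which binds metal response elements (MREs) near their start sites. Zinc leaves the cytoplasm through ZnT proteins of the SLC30A family and enters it through ZIP proteins of the SLC39A family. MT2A is also a classic target of glucocorticoids, and SLC39A14 is known as an importer induced in inflammation.

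The promoters of 4 of the 10 members (MT2A, MT1X, SLC30A1 and MTF1) were matched in a RefSeq promoter table of build GRCh38.p14. They were searched because these genes share, as background, the MRE and MTF1 system. The 3 windows that held an MRE core are printed as the 250 bases before the start site, 5′ to 3′ on the strand of the gene. Capitals mark the MRE cores, spelled TGCACNC or TGCGCNC on either strand.
MT2A: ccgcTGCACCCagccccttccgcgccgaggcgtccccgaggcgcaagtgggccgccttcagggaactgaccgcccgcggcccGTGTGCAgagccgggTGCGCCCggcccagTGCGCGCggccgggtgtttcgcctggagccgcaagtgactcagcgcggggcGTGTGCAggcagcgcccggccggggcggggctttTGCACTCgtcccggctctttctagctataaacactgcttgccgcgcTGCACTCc
MT1X: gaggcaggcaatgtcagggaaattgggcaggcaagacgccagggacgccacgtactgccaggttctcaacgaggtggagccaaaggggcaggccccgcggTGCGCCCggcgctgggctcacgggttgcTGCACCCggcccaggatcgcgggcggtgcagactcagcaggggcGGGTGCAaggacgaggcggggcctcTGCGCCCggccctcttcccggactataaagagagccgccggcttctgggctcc
SLC30A1: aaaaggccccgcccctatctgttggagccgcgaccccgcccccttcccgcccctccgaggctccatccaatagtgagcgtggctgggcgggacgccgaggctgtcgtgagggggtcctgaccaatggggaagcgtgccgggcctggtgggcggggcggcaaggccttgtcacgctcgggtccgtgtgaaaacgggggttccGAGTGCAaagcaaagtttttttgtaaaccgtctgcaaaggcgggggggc

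The MT2A window (chr16:56608334-56608583, plus strand) held 7 MRE cores, and 0.0313% of 35116 promoter windows held at least as many. The MT1X window (chr16:56682220-56682469, plus strand) held 4, a number reached by 0.37% of windows. The SLC30A1 window (chr1:211579162-211579411, minus strand) held 1, where 24.8% of windows held at least 1, and the MTF1 window (chr1:37859593-37859842, minus strand) held 0. An AP-1 heptamer, spelled TGANTCA and left in lower case, was in the MT2A window and in 6.57% of all windows, and in none of the windows of MT1X, SLC30A1 or MTF1. These matches describe the letters in the windows and are not evidence of binding.

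Levels were given as FPKM, fragments scaled to the length of the transcript and to the total of the library, so that levels can be compared between genes. These values are not counts and give no read totals, and a table of alignment statistics was not used here, so absolute depth is unknown. From the steps between low values, the depth of the libraries relative to control 1 lay between 0.847 and 1.17. HRAS was listed at 1140 to 1176 FPKM in the control libraries and 1439 to 1847 in the Ras-induced libraries, and reads of the construct and of the endogenous gene cannot be told apart. Of 9 ERK target genes that averaged 1 FPKM or more in each group, 5 rose and 1 fell at an adjusted p of at most 0.05 by limma, beside 16.7% of all tested genes in either direction. The 6 fibroblast markers summed to 4642 to 5242 FPKM in controls and 3011 to 4239 in Ras-induced cells, with 5 of the 6 lower by fold change. Of these, 4 had groups that did not overlap and 2 were at that adjusted p. Of all tested genes, 39.9% had groups that did not overlap, 27.1% being higher in Ras-induced cells, and 16.7% were at that adjusted p. The 6 mitotic markers summed to 1489 to 1533 and 1231 to 1367, with all 6 lower by fold change. Of these, 5 had groups that did not overlap and 2 were at that adjusted p, beside the same shares of all tested genes. Epithelial markers summed to 17.0 to 32.8 FPKM in controls and 19.6 to 21.2 in Ras-induced cells, while endothelial markers summed to 0.074 to 0.138 and leukocyte markers to 0.037 to 0.288 FPKM over all libraries, with PECAM1 and CD3E at 0. In bulk samples, fewer cells of a type and less RNA per cell cannot be told apart, and the part of these marker levels in the results was not tested.

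None of the 8 members that could be tested was altered between the groups. MT2A and MT1X had higher values in all Ras-induced libraries than in any control library, a separation found in that direction in 27.1% and in either direction in 39.9% of all tested genes. The weakly expressed MT1A also had separate groups, but passed the filter on low values only through the Ras-induced libraries. The adjusted p-values of MT2A and MT1X stayed above the threshold of 0.05. MT1E, the second most abundant metallothionein, had a lower mean in Ras-induced cells. MTF1, SLC30A1 and SLC39A14 had overlapping groups. Differences were tested with limma on log2(FPKM + 1) over 13993 genes whose mean reached 1 FPKM, with Benjamini-Hochberg adjustment, and genes with an adjusted p of at most 0.05 are called altered. By that rule 16.7% of all tested genes were altered. The share was 6.92% among genes with transcripts of at most 600 bases, the class of MT2A, MT1X, MT1G and MT1A.

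**Figure D1:**
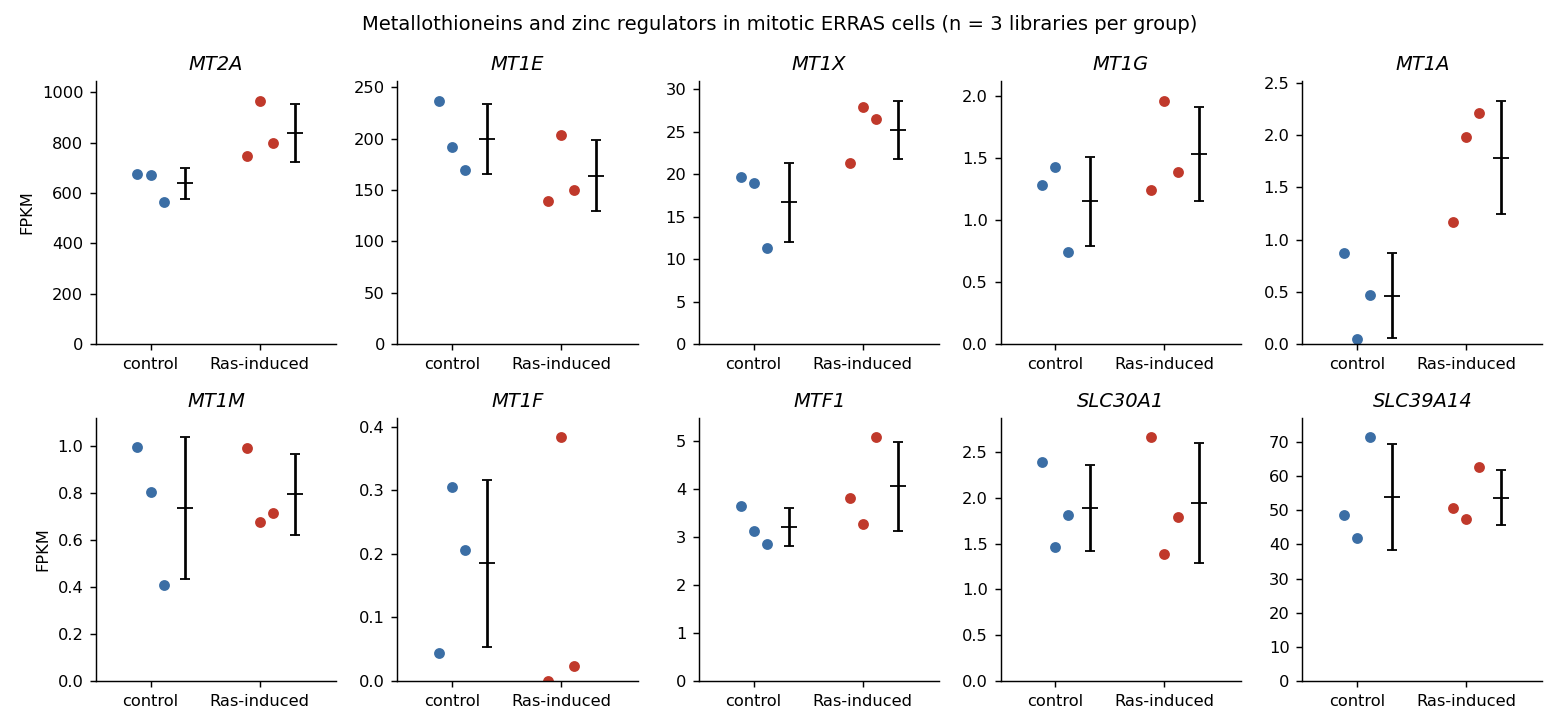
FPKM of each member (vertical axes, each from 0) in the 3 control (blue) and 3 Ras-induced (red) libraries, with the mean and SD of each group as black bars, left out where a library was listed at 0. The groups are separate for MT2A, MT1X and MT1A and overlap for the other members.

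The levels of the members spanned several orders of magnitude. MT2A stood highest, followed by MT1E, SLC39A14, MT1X, MTF1 and SLC30A1, and no neighbours in this order overlapped in any library. SLC30A1, MT1G, MT1A and MT1M overlapped with their neighbours and cannot be ranked, and MT1F was lowest by its mean over all libraries, at 0.16 FPKM. Along the cluster (hg19), the abundant genes MT2A and MT1E lay near one end and MT1X at the other, with the weakly expressed genes between MT1E and MT1X.

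**Figure D2:**
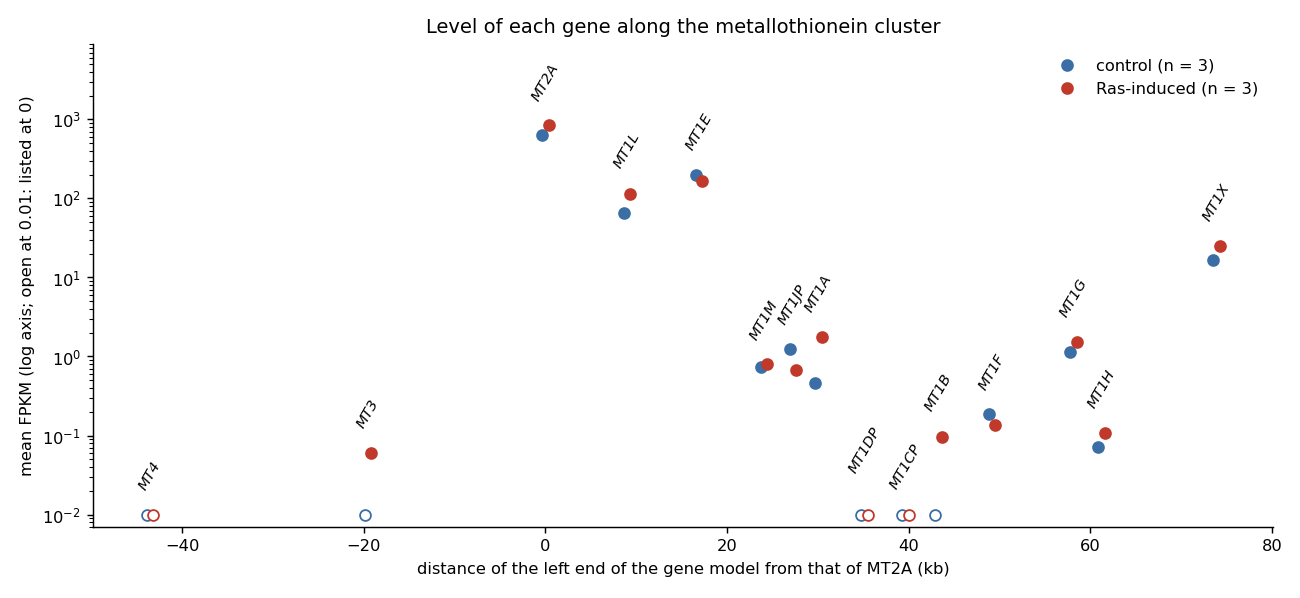
Mean FPKM (vertical log axis) of each metallothionein gene and pseudogene on chromosome 16 in control (blue, n = 3) and Ras-induced (red, n = 3) cells, against distance from MT2A in kb, with means of 0 drawn open at 0.01. MT2A, MT1L, MT1E and MT1X stand above the other genes of the cluster, whose means lie below 2 FPKM.

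MT2A (ENSG00000125148, chr16:56642496-56643409, plus strand), the main metallothionein of most tissues, had FPKM values of 675.8, 673.3 and 566.1 in controls, against 747.9, 967.1 and 798.8 with Ras induced. Every Ras-induced value lay above every control value, and the highest was in Ras-induced replicate 2. The means were 638.4 ± 62.6 FPKM and 837.9 ± 114.7 FPKM (SD, n = 3 each), a ratio of 1.31. The log2 fold change was 0.39 (SE 0.12, 95% interval 0.09 to 0.69, limma adjusted p = 0.0805), of which 0.10 equals the median over all tested genes. The gene was therefore not called altered.

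MT1E (ENSG00000169715, chr16:56659387-56661024, plus strand) encodes a metal-binding metallothionein of the MT1 group. It was listed at 237.2, 192.3 and 169.7 FPKM in control and at 139.0, 203.8 and 149.7 FPKM in Ras-induced libraries. The groups overlapped through Ras-induced replicate 2, which lay above 2 of the 3 controls. The means were 199.7 ± 34.4 FPKM and 164.2 ± 34.7 FPKM (SD, n = 3 each), and the log2 fold change was -0.29 (SE 0.18, 95% interval -0.72 to 0.14, limma adjusted p = 0.312). It was -0.16 without control replicate 1, -0.18 without Ras-induced replicate 1 and -0.45 without Ras-induced replicate 2.

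MT1X (ENSG00000187193, chr16:56716382-56718108, plus strand), another metal-inducible member of the MT1 group, was listed at 19.7, 19.0 and 11.3 FPKM in control and at 21.3, 27.9 and 26.5 FPKM in Ras-induced libraries. The groups did not overlap, and control replicate 3 stood well below the others. The means were 16.7 ± 4.67 FPKM and 25.2 ± 3.45 FPKM (SD, n = 3 each). The log2 fold change was 0.60 (SE 0.22, 95% interval 0.08 to 1.12, limma adjusted p = 0.11), and it was 0.36 without control replicate 3.

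The remaining 4 metallothioneins were weakly expressed. MT1A (ENSG00000205362, chr16:56672578-56673999, plus strand) was listed at 0.874, 0.0509 and 0.474 FPKM in control and at 1.17, 1.98 and 2.21 FPKM in Ras-induced libraries. The groups did not overlap, and MT1A passed the filter on low values only through the Ras-induced libraries, so its values are given as a description. Its means were 0.466 ± 0.411 FPKM and 1.79 ± 0.545 FPKM (SD, n = 3 each), a ratio of 3.83. At so low a level the log2 fold change depended on the pseudocount, at 0.95 with 1 and 2.06 with 0.1.

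MT1G (ENSG00000125144, chr16:56700642-56701977, minus strand) was listed at 1.28, 1.43 and 0.746 FPKM in control and at 1.25, 1.97 and 1.39 FPKM in Ras-induced libraries. The groups overlapped, with a log2 fold change of 0.24 (SE 0.22, 95% interval -0.28 to 0.76, limma adjusted p = 0.47). MT1M (ENSG00000205364, chr16:56666571-56667893, plus strand) fell under the filter, at 0.997, 0.805 and 0.407 FPKM in control and 0.992, 0.679 and 0.714 FPKM in Ras-induced libraries. MT1F (ENSG00000198417, chr16:56691643-56694610, plus strand) also fell under it, at 0.044, 0.305 and 0.206 FPKM in control and at 0.383 and 0.0228 FPKM in Ras-induced replicates 2 and 3, and it was listed at 0 in Ras-induced replicate 1. Neither gene was tested, and the values of both groups overlapped.

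The summed level of the 7 metallothioneins was 935.9, 887.2 and 748.9 FPKM in control and 911.7, 1204 and 979.3 FPKM in Ras-induced libraries. The groups overlapped, with means of 857.3 ± 97.0 FPKM and 1032 ± 152.9 FPKM (SD, n = 3 each). Shares of this sum are given as a description, with no test. The shares of MT2A, MT1E and MT1X did not overlap between the groups, beside 39.9% of all tested genes that did not overlap by level. Being parts of one sum, they are not separate observations. MT2A made up 72.2, 75.9 and 75.6% of it in control and 82.0, 80.3 and 81.6% in Ras-induced libraries. MT1E made up 25.3, 21.7 and 22.7% in control and 15.3, 16.9 and 15.3% in Ras-induced libraries. MT1X made up 1.51 to 2.15% in control and 2.31 to 2.71% in Ras-induced libraries. The other 4 members together made up 0.245 to 0.342% in control and 0.374 to 0.443% in Ras-induced libraries. Of these 4, only MT1A had groups that did not overlap, and it passed the filter only through the Ras-induced libraries. The separation of their joint share is therefore not read as a result.

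Ratios between 2 genes of one library do not depend on how the libraries were scaled. A set of 3 ratios among the abundant metallothioneins is therefore given as a description, with no test, since the pairs were chosen after the values were seen. The ratio of MT1E to MT2A was 0.351, 0.286 and 0.30 in control and 0.186, 0.211 and 0.187 in Ras-induced libraries. All Ras-induced ratios were below all control ratios, with means of 0.312 ± 0.0344 and 0.195 ± 0.0139 (SD, n = 3 each), a log2 difference of -0.68. With any single library left out, that difference lay between -0.74 and -0.59.

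The ratio of MT1X to MT1E was 0.0831, 0.099 and 0.0666 in control and 0.153, 0.137 and 0.177 in Ras-induced libraries. These groups did not overlap either, but both ratios hold MT1E, so they are not separate observations. The log2 difference was 0.92, between 0.77 and 1.06 with any library left out. The ratio of MT1X to MT2A was 0.0292, 0.0283 and 0.02 in control and 0.0285, 0.0288 and 0.0332 in Ras-induced libraries. Its groups overlapped, with a log2 difference of 0.24.

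**Figure D3:**
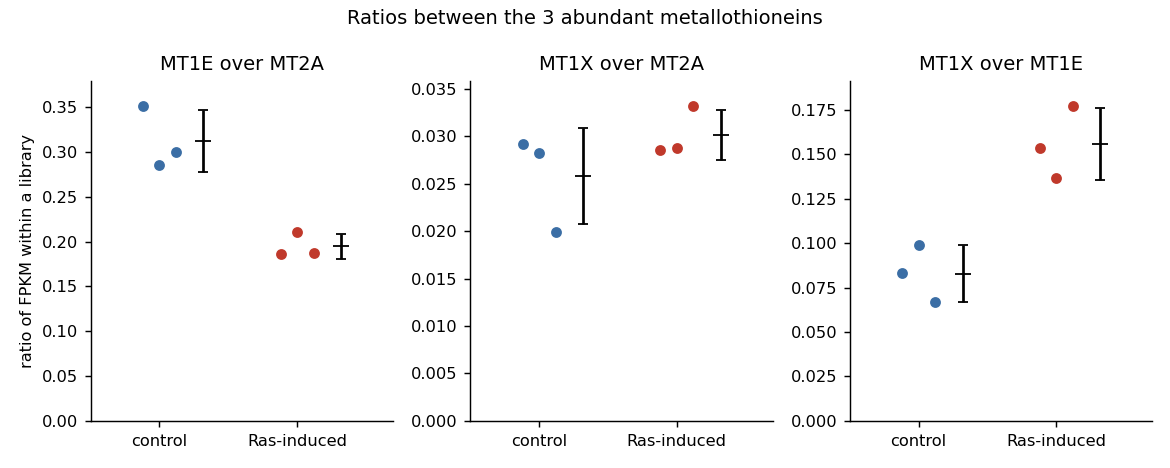
Ratio of FPKM within a library (vertical axes, each from 0) for 3 pairs of abundant metallothioneins in control (blue) and Ras-induced (red) libraries, with mean and SD as black bars (n = 3). Both ratios that involve MT1E are separate between the groups, and the ratio of MT1X to MT2A overlaps.

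MTF1 (ENSG00000188786, chr1:38275246-38325264, minus strand), the transcription factor that senses zinc, was listed at 3.63, 3.13 and 2.85 FPKM in control and at 3.81, 3.26 and 5.07 FPKM in Ras-induced libraries. The groups overlapped, and the highest value was in Ras-induced replicate 3. The means were 3.20 ± 0.399 FPKM and 4.05 ± 0.928 FPKM (SD, n = 3 each), with a log2 fold change of 0.25 (SE 0.17, 95% interval -0.15 to 0.66, limma adjusted p = 0.347).

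SLC30A1 (ENSG00000170385, chr1:211744910-211752503, minus strand), which encodes the plasma membrane zinc exporter ZnT1 and is itself an MTF1 target, was listed at 2.39, 1.46 and 1.82 FPKM in control and at 2.67, 1.38 and 1.79 FPKM in Ras-induced libraries. The spread within each group exceeded the difference between their means, which were 1.89 ± 0.471 FPKM and 1.95 ± 0.655 FPKM (SD, n = 3 each). Its log2 fold change was 0.02 (SE 0.22, 95% interval -0.52 to 0.55, limma adjusted p = 0.967), an interval that leaves room for a change in either direction.

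SLC39A14 (ENSG00000104635, chr8:22224791-22291642, plus strand), which encodes ZIP14, an importer of zinc, iron and manganese, was listed at 48.7, 41.8 and 71.4 FPKM in control and at 50.8, 47.6 and 62.8 FPKM in Ras-induced libraries. The Ras-induced values lay within the range of the controls, and replicate 3 was highest in each group. The means were 54.0 ± 15.5 FPKM and 53.7 ± 8.0 FPKM (SD, n = 3 each), with a log2 fold change of 0.02 (SE 0.21, 95% interval -0.48 to 0.52, limma adjusted p = 0.959). For SLC30A1 and SLC39A14 the sign of the difference turned under quantile normalization and upper-quartile scaling of the libraries.

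Counted over the 10 members, 8 passed the filter, MT1A through one group alone, and limma called 0 altered. MT1A is therefore left out of the counts that follow, which cover the other 7. At an unadjusted p under 0.05, 2 of the 7 (MT2A and MT1X) were higher in Ras-induced cells and 0 lower, against 33.6% of all tested genes in either direction and 22.9% in that direction. The same 2 had groups that did not overlap, against 39.9% of all tested genes in either direction and 27.1% higher in Ras-induced cells. Neither count stands out from these shares. Of the 7, 6 had a positive and 1 a negative log2 fold change, and their median was 0.24, beside 0.10 for all tested genes. Among all tested genes 1543 were altered towards higher and 793 towards lower levels in Ras-induced cells, a split that depended on scaling, with 1044 of 2153 altered genes higher after quantile normalization and 921 of 2022 after upper-quartile scaling.

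**Figure D4:**
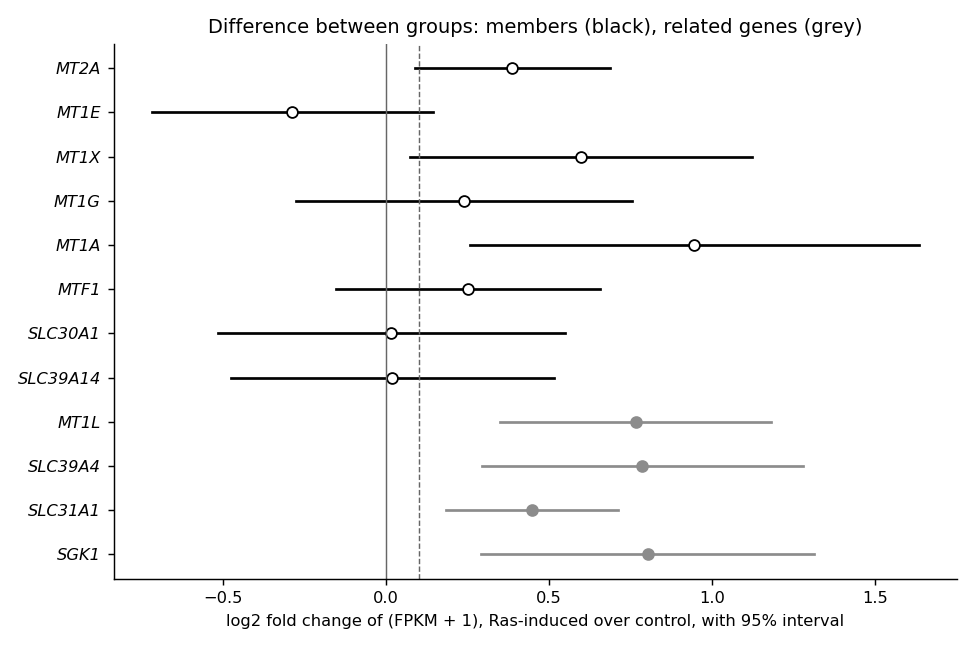
Log2 fold change of FPKM + 1, Ras-induced over control (horizontal axis, 95% intervals as lines), for the 8 tested members in black (MT1A passed the filter only through the Ras-induced group) and 4 related genes in grey, with the median of all tested genes dashed. Open circles are genes not called altered, filled circles altered genes, and the intervals of MT2A and MT1X lie above 0 without these genes passing the adjusted threshold.

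Relatives of the members were taken from lists by family or function. Among 14 further metallothionein genes and pseudogenes, 13 were in the table, 4 were listed at 0 in every library and 4 passed the filter, MT1XP1 through the control libraries alone. Of the other 3, which were MT1L, MT1P3 and MT2P1, 1 rose and 0 fell, with a median log2 fold change of 0.31, which was -0.21 with MT1XP1. The one that rose was MT1L (ENSG00000260549, chr16:56651475-56652592, plus strand), annotated as a transcribed pseudogene between MT2A and MT1E. It was listed at 69.0, 74.2 and 55.8 FPKM in control and at 103.8, 142.7 and 96.8 FPKM in Ras-induced libraries, with no overlap between the groups. The means were 66.3 ± 9.47 FPKM and 114.4 ± 24.7 FPKM (SD, n = 3 each), and the log2 fold change was 0.77 (SE 0.17, 95% interval 0.35 to 1.18, limma adjusted p = 0.0309). Its lowest library was control replicate 3 and its highest Ras-induced replicate 2, as for MT2A. MT1L was no longer called when any single library was left out, with log2 fold changes between 0.60 and 0.88, nor with no filter on low values. Its annotated transcript was 186 bases long, and the effect of so short a length on its FPKM was not tested.

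Reads of metallothioneins can be hard to assign, since the genes are near copies. The best local alignment of the transcripts was 83.4% identical between MT2A and MT1E, 82.9% between MT2A and MT1X, 74.4% between MT1E and MT1X, and 94.6% between MT1E and MT1L. Of the stretches of 50 bases in their transcripts, 45 of 1005 in MT2A, 78 of 1098 in MT1E and 68 of 1821 in MT1X also occurred in a transcript of another gene. In the weak members MT1G and MT1M the counts were 139 of 845 and 84 of 461. The stretches pool all annotated transcripts of a gene, 5 for MT2A, 3 for MT1E, 4 for MT1X, 4 for MT1G and 2 for MT1M. The shares therefore depend on the transcripts annotated and do not rank the genes. MT1L shared 16 of 137 stretches, all with the pseudogene MT1P3 and none with MT1E. How reads with several matches were divided was not given in the sources used here. The values of the metallothioneins and pseudogenes are therefore uncertain, those of MT2A, MT1E and MT1X included. Shared stretches made up 54.7% in MT1P3, 29.2% in MT1JP and 27.7% in MT1XP1, beside 18.2% in MT1M, 16.4% in MT1G and 11.7% in MT1L.

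The wider zinc transporter families were counted in the same way, beside 16.7% of all tested genes altered and 33.6% at an unadjusted p under 0.05. Of 9 zinc exporters of the SLC30A family, 5 were tested and 0 were altered by limma, with 0 at an unadjusted p under 0.05 and a median log2 fold change of 0.11. Of 13 further zinc importers of the SLC39A family, 9 were tested, 1 rose and 0 fell, with 2 at an unadjusted p under 0.05 and a median of 0.01. The one that rose was SLC39A4, which encodes ZIP4, the intestinal zinc importer lost in acrodermatitis enteropathica. It was listed at 1.86, 1.91 and 2.57 FPKM in control and at 5.63, 3.16 and 4.55 FPKM in Ras-induced libraries, so the groups did not overlap at a low level of expression. Its log2 fold change was 0.79 (SE 0.21, limma adjusted p = 0.0467), and the call was lost in 10 of 14 alternative settings. SLC39A10, an importer whose gene is known to be repressed by MTF1 when zinc is ample, was picked after its values were seen. It was listed at 11.5, 10.5 and 14.2 FPKM in control and at 8.97, 7.80 and 9.08 FPKM in Ras-induced libraries, and the groups did not overlap. Its log2 fold change was -0.43 (SE 0.13, limma adjusted p = 0.0673), which did not pass the threshold. SLC39A10 stayed uncalled in 12 of 14 alternative settings. It passed after quantile normalization (-0.53, limma adjusted p = 0.0416) and with a trend over transcript length removed (-0.48, limma adjusted p = 0.0488). The latter setting was chosen after seeing the data. In both settings SLC39A4 was not called, so that 0 zinc importers rose and 1 fell.

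Metallothioneins also bind copper and answer to glucocorticoids, so genes of both systems were set beside them. Of 12 copper-handling genes, 10 were tested, 1 rose and 0 fell, with a median log2 fold change of 0.30. At an unadjusted p under 0.05 there were 5 of the 10, and 7 of the 10 had groups that did not overlap, all of them higher in Ras-induced cells, beside 22.9% and 27.1% of all tested genes in that direction. The one that rose was SLC31A1, which encodes the copper importer CTR1, at 23.4, 21.0 and 22.0 FPKM in control and 35.5, 28.6 and 28.1 FPKM in Ras-induced libraries. Its groups did not overlap, and its log2 fold change was 0.45 (SE 0.11, limma adjusted p = 0.0385). Of 7 glucocorticoid response genes, 4 were tested, 1 rose and 0 fell, with a median of 0.14. Beside the called counts of both lists, 16.7% of all tested genes were altered. The glucocorticoid response gene that rose was SGK1, a kinase induced by glucocorticoids and serum, at 14.5, 12.8 and 8.44 FPKM in control and 24.9, 17.3 and 21.6 FPKM in Ras-induced libraries. Its log2 fold change was 0.80 (SE 0.21, limma adjusted p = 0.0482). The call of SLC31A1 was lost in 10 and that of SGK1 in 11 of 14 alternative settings.

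Library profiles were compared between classes of transcript length. The transcripts of MT2A, MT1X and MT1E were 401, 404 and 746 bases long, beside 7937 for MTF1, 5893 for SLC30A1 and 4663 for SLC39A14. The median over 1532 genes with transcripts of at most 600 bases, taken on log2(FPKM + 1) relative to each gene's own mean, was -0.10, -0.03 and -0.22 in control and -0.04, 0.09 and 0.01 in Ras-induced libraries. Control replicate 3 was lowest and Ras-induced replicate 2 highest. The same libraries were lowest, at -0.13, and highest, at 0.11, for 5752 genes of middle length, the class of MT1E. This measure for MT2A was -0.11, -0.11 and -0.36 in control and 0.04, 0.41 and 0.13 in Ras-induced libraries, with the same lowest and highest libraries. The lowest and highest libraries of MT1X were also control replicate 3, at -0.78, and Ras-induced replicate 2, at 0.45, and those of MT1L were the same, at -0.62 and 0.72. MT1A, also short, was lowest in control replicate 2, at -0.91, and highest in Ras-induced replicate 3, at 0.70, and MT1E was highest in control replicate 1, at 0.41, and lowest in Ras-induced replicate 1, at -0.36. The short class had a median log2 fold change of 0.12, beside 0.15 for the middle class and 0.06 for 6321 genes with transcripts longer than 3000 bases. After a smooth trend over transcript length was removed from each library, the log2 fold change was 0.25 for MT2A (limma adjusted p = 0.0963), 0.46 for MT1X (limma adjusted p = 0.137) and -0.45 for MT1E (limma adjusted p = 0.0949).

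**Figure D5:**
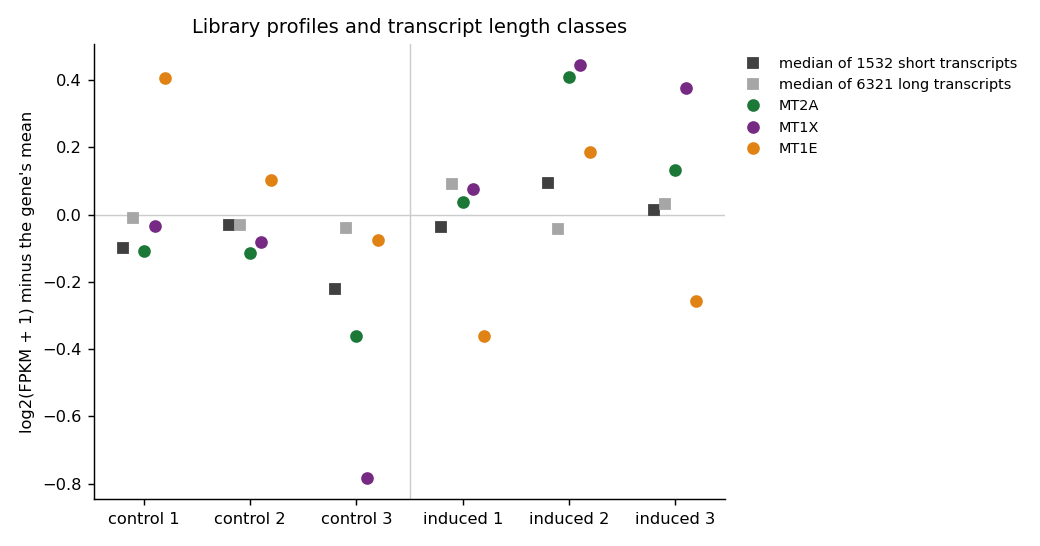
Log2(FPKM + 1) minus the mean of the gene (vertical axis) in each library (horizontal axis) for MT2A, MT1X and MT1E as circles, with the medians of 1532 short and 6321 long transcripts as squares (middle class not drawn). MT2A and MT1X are lowest in control 3 and highest in induced 2, as is the median of the short transcripts, and MT1E has another order.

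The tested genes with the profile nearest to that of MT2A over the 6 libraries were SRP19, CD2BP2 and RABEPK. Their root mean square distance from it, on mean-centred log2(FPKM + 1), was 0.03, 0.03 and 0.04, beside a median of 0.28 over all tested genes. SRP19, a protein subunit of the signal recognition particle, was listed at 79.9, 81.2 and 66.8 FPKM in control and at 93.9, 116.4 and 95.8 FPKM in Ras-induced libraries. The genes nearest to SLC39A14 were GPR108, MTND4P12 and RTN3, at distances of 0.05, 0.05 and 0.06 beside a median of 0.35. The distances describe 6 libraries, which differ in depth and in their length profile.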

How the data were processed

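Poly(A) RNA of 6 samples of mitotic ERRAS cells was sequenced. According to the study's methods and the submitters' processing notes, the authors trimmed reads with Trim Galore 0.3.0, aligned them to hg19 with TopHat2 and Ensembl junctions, and deposited FPKM values per gene from Cufflinks as one table. FPKM divides by gene length and total mapped reads, so a few abundant genes or a length bias of a library can shift all other values. The column names give the group and a number but not the sample, so each library served as a replicate of the group named. A further 18 columns without a name were not used, and 120 genes with more than 6 values were left out. The authors' own comparison, which holds fold changes and p-values, was not used. The study describes the experiment as independently repeated, but the labels name no cultures, and p-values measure the spread between these libraries.

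The 13993 genes that averaged 1 FPKM or more entered a two-sided limma fit (version 3.58.1, R 4.3.3) of log2(FPKM + 1), using lmFit and a trended eBayes, and p-values were adjusted over these genes by the Benjamini-Hochberg method. Fold changes on this scale understate changes of genes near 1 FPKM. The procedure was tested on simulated data. The members and lists were chosen with earlier results of these data known. All 10 members were named, with up to 4 altered genes of each related list and the 3 genes of nearest profile to the most abundant metallothionein and zinc regulator. Gene coordinates are from GENCODE 44 lifted to GRCh37, the build of hg19, and 55021 listed genes matched by identifier. Ratios, sequences and figures were computed with Python 3.11.15, pandas 2.3.3, numpy 2.4.6, scipy 1.17.1, Biopython 1.88 and matplotlib 3.10.9. Alternatives were the pseudocount, the filter, scaling between libraries, limma without a trend, the replicate number as a block, each library left out and, chosen after seeing the data, removal of a trend over transcript length.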

Additional observations from a re-analysis of the deposited data

How the results depend on the processing

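Under 14 alternatives MT2A, MT1X, MT1G, MT1A and MTF1 kept positive and MT1E negative log2 fold changes. The count of altered members was 1 (MT1A, which passes also that filter only through the Ras-induced libraries) with at least 1 FPKM in 3 libraries and 0 under each of the others. The adjusted p ranged from 0.0566 to 0.207 for MT2A, 0.0846 to 0.265 for MT1X, 0.0949 to 0.612 for MT1E, 0.337 to 0.725 for MT1G and 0.209 to 0.679 for MTF1. With 1 library left out, the log2 fold change was -0.45 to -0.16 for MT1E, 0.10 to 0.33 for MT1G and 0.11 to 0.37 for MTF1. The log2 fold change of SLC30A1 was -0.065 with quantile normalization, -0.054 with upper-quartile scaling, -0.03 with the length trend removed and -0.15 to 0.16 with 1 library left out. That of SLC39A14 was -0.076, -0.089 and -0.034 in the same order, and -0.14 to 0.24 with 1 library left out. With no filter 1518 genes were altered in all, and 860 to 1872 with 1 library left out, where fewer samples enter the fit. Altered counts among other metallothioneins were 0 with no filter and 0 to 0 with 1 library left out. Zinc importers gave 0 with no filter and with upper-quartile scaling, and 0 to 1 with 1 library left out. Quantile normalization and removal of the length trend kept a count of 1, but the gene was SLC39A10, lower, in place of SLC39A4, higher. Copper-handling genes gave 0 with no filter, quantile normalization, upper-quartile scaling or limma without a trend, and 0 to 0 with 1 library left out. The cause of these losses was not tested.

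Deviations of libraries with the same number had correlations of -0.003 to 0.048 over 3 pairs, beside -0.068 to 0.031 over 6 pairs of unlike number. So few values cannot show whether libraries of one number came from the same repeat of the experiment. With the replicate number as a block, 2310 genes were altered in all, 0 members (MT2A adjusted p = 0.0712), 0 zinc importers and 3 copper-handling genes (ATOX1, SCO2 and SLC31A1). Depth is unknown, and levels near or under 1 FPKM, those of MT1A, MT1F, MT1G and MT1M, have the least precision.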
